A study of Homo sapiens with 12 samples.

Results

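Liver X receptors (LXRs) are nuclear receptors that sense sterols, and their genes and targets are described here as 10 genes chosen by symbol. They comprised the receptor genes NR1H3 (LXR alpha) and NR1H2 (LXR beta), the partner gene RXRA, and the target genes ABCA1, ABCG1, MYLIP, LPCAT3, APOE, SMPDL3A and ABCG4. All 10 were found among the 60662 genes of the deposited table, and 9 of the 10 passed the filter on low values that left 16815 genes for testing. ABCG4 was too low to be tested. The genes were named by symbol, with no threshold on a measured value. They were chosen with earlier results of these data known, so counts and medians over them are not independent of these data.

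Total RNA was sequenced from NCI-H295R, an established human adrenocortical carcinoma line that makes cortisol, in 12 samples. The 3 groups of 4 numbered replicates differed in the agent they received, which was 0.1% DMSO as vehicle (VEH), CJ28 or metyrapone (MET). Both compounds were used at 30 µM, and exposure lasted 24 h in every group after 12 h of serum withdrawal. CJ28 is a benzimidazolylurea made by the authors as an inhibitor of cortisol synthesis, and metyrapone blocks the enzyme that forms cortisol from its direct precursor. All groups were 1 tumour-derived line, so the values describe this line and not adrenal tissue.

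LXRs bind oxysterols and other sterol ligands, pair with a retinoid X receptor, and sit on repeated AGGTCA-like elements in DNA. With ligand they switch on genes that export cholesterol, limit its uptake and remodel phospholipids, and without ligand corepressor complexes keep many of these genes low. In adrenocortical cells, cholesterol is the starting material of every steroid hormone, and LXR targets bear on how much of it stays in the cell.

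The design asks which genes each inhibitor of cortisol synthesis changes. CJ28 lowered the cholesterol exporter genes ABCA1 and ABCG1 most among the 10 genes. MYLIP and LPCAT3 also fell, while NR1H2 and SMPDL3A rose. NR1H3 and APOE did not pass the test in any comparison, and none of the 9 tested genes passed in MET against VEH. In all, 7 of the 9 tested genes passed in CJ28 against VEH, where 57.0% of all tested genes did, and the same 7 passed against MET, where 55.5% did. Both counts use the same CJ28 samples and include RXRA, whose call did not hold under either rescaling or with no filter. They also include ABCA1, ABCG1 and MYLIP, which needed VEH and MET samples to pass the filter on low values.

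The level of each gene is given as TPM (transcripts scaled to a fixed total per sample), which is corrected for transcript length and can therefore be compared between genes. In VEH the order of mean levels ran from NR1H2 through LPCAT3, RXRA and SMPDL3A to NR1H3, ABCA1, MYLIP, APOE, ABCG1 and ABCG4. NR1H3 and ABCA1 overlapped in their VEH samples, as did ABCA1 and MYLIP, and all other neighbours in that order were separate. In CJ28, ABCA1 moved from the sixth to the eighth place, where its samples overlapped those of ABCG4, which in turn overlapped those of ABCG1. In MET the samples of NR1H3 overlapped those of MYLIP, those of MYLIP overlapped those of ABCA1, and those of APOE overlapped those of ABCG1.

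**Figure D1:**
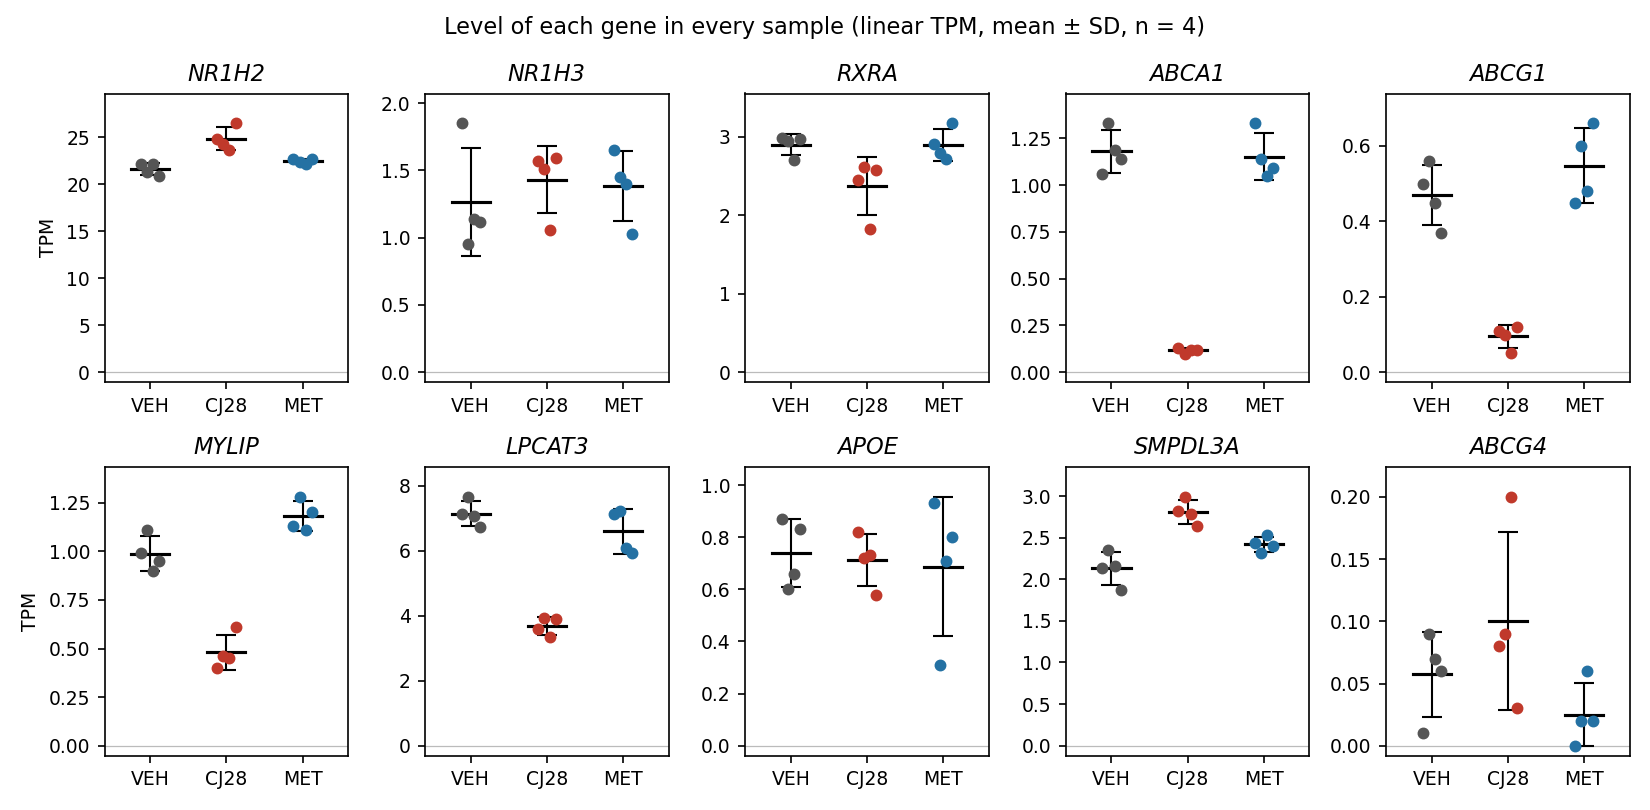
Level of each of the 10 genes in every sample, as linear TPM on the vertical axis, with the VEH, CJ28 and MET samples side by side and a bar with whiskers for the mean ± SD (n = 4). The CJ28 samples of ABCA1, ABCG1, MYLIP and LPCAT3 lie below all other samples, those of NR1H2 and SMPDL3A lie above all others, and the groups overlap in NR1H3 and APOE.

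Because ABCA1 had the largest change of the 10 genes, the stretch directly before its start is shown. RefSeq promoter windows (GRCh38.p14, 250 bases before to 50 bases after a start) were found for 8 of the 10 genes, all but ABCG1 and SMPDL3A. The windows were searched on both strands for the direct repeat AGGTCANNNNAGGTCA, the classical LXR element with 4 bases between its repeats, allowing 2 mismatches in the 12 fixed letters. A match was present in 822 of 35116 windows, or 2.34%, and in 1 of the 15 windows of the LXR genes, that of ABCA1. The 250 bases before the ABCA1 start on chromosome 9, chr9:104928156-104928405 on the minus strand, are printed 5′ to 3′, with the repeats of the match in capitals.
ABCA1: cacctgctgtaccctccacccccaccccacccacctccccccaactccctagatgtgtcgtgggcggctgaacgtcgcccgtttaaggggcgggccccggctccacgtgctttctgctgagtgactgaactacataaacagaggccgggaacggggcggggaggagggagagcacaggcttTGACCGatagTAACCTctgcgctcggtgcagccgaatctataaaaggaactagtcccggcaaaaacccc

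The match lay 69 to 54 bases before the start, at chr9:104928209-104928224, and read AGGTTActatCGGTCA on the strand of the motif, with 2 mismatches. It is upstream of the first exon of ABCA1 and falls within the span of AL359182.1, a long non-coding RNA gene on the opposite strand, which had a mean of 0.045 TPM in VEH and 0 in CJ28. The match describes letters, and binding to it was not measured in these samples.

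NR1H2 encodes LXR beta, the receptor found in most tissues (ENSG00000131408.15, chromosome 19, 50329653 to 50383388, plus strand, GRCh38). Its level was 22.13, 21.29, 22.12 and 20.88 TPM in VEH, 24.85, 24.31, 23.58 and 26.46 in CJ28, and 22.69, 22.36, 22.10 and 22.64 in MET. All CJ28 samples were above all VEH and MET samples, and VEH and MET overlapped. The log2 fold change in CJ28 against VEH was 0.20 (95% interval 0.11 to 0.28, adjusted p = 8.91e-04, limma), a rise of 14.8% in mean TPM. Group means were 21.6 ± 0.623 TPM for VEH, 24.8 ± 1.22 for CJ28 and 22.4 ± 0.273 for MET (SD, n = 4).

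NR1H3 encodes LXR alpha, the receptor that is prominent in liver, fat and macrophages (ENSG00000025434.19, chromosome 11, 47248300 to 47269033, plus strand). Its mean was 1.27 ± 0.399 TPM with VEH, 1.43 ± 0.251 with CJ28 and 1.38 ± 0.259 with MET (SD, n = 4). The samples of all groups overlapped, which ran from 0.95 to 1.85 TPM with VEH, from 1.06 to 1.59 with CJ28 and from 1.03 to 1.65 with MET. The CJ28 log2 fold change was 0.19 with an interval of -0.25 to 0.63 (adjusted p = 0.442, limma), so a fall or a rise within those bounds was not distinguished. The gene ACP2 overlaps NR1H3 on the other strand and was higher, with a mean of 11.9 TPM in VEH and 11.4 in CJ28. The libraries were stranded, but the use of strand in counting was not given in the sources used here, so reads from the overlap may not be told apart.

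RXRA, which encodes the retinoid X receptor alpha that pairs with LXRs (ENSG00000186350.12, chromosome 9, 134317098 to 134440585, plus strand), had 2.98, 2.94, 2.70 and 2.97 TPM in VEH, 2.45, 2.62, 1.83 and 2.58 in CJ28, and 2.91, 2.79, 2.71 and 3.17 in MET. The CJ28 samples were all lower than the others, and CJ28-3 was lower than the rest of its group. The log2 fold change was -0.29 (interval -0.52 to -0.06, adjusted p = 0.0303, limma), or -0.16 relative to the median of all genes. The call depended on single samples, on the scaling and on the filter. Without CJ28-3 the change was -0.18 (adjusted p = 0.0638), and after median-of-ratios scaling it was -0.14 (adjusted p = 0.226). With no filter on low values the adjusted p was 0.0636. Leaving out VEH-1, VEH-2 or VEH-4 also raised the adjusted p above 0.05, to 0.0647, 0.0603 and 0.0647.

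ABCA1, the transporter that passes cholesterol to lipid-poor apolipoproteins (ENSG00000165029.16, chromosome 9, 104781006 to 104928155, minus strand), showed the largest change of the 10 genes. It had 1.06, 1.33, 1.19 and 1.14 TPM in VEH and 0.13, 0.10, 0.12 and 0.12 in CJ28. In MET it had 1.33, 1.14, 1.05 and 1.09 TPM. The CJ28 samples lay far below both other groups, which overlapped each other. The CJ28 mean fell by 90.0% from the VEH mean, from 1.18 ± 0.113 to 0.118 ± 0.0126 TPM. The log2 fold change of TPM + 0.1 was -2.55 (interval -2.86 to -2.25, adjusted p = 9.49e-09, limma), the 47th lowest of the 16815 genes tested. The added 0.1 is close to the CJ28 level, and the size of this change depended on it, at -0.96 with 1 TPM added and -3.22 with 0.01. No CJ28 sample of ABCA1 reached the 0.5 TPM of the filter, so the gene entered this ranking only through VEH and MET samples. That favoured a difference.

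ABCG1, which exports cholesterol to mature HDL (ENSG00000160179.18, chromosome 21, 42199689 to 42297244, plus strand), had 0.50, 0.56, 0.45 and 0.37 TPM in VEH and 0.11, 0.10, 0.05 and 0.12 in CJ28. Its MET samples had 0.45, 0.60, 0.48 and 0.66 TPM and overlapped VEH, while every CJ28 sample was below both. Mean TPM was 4.95-fold higher in VEH than in CJ28, and the log2 fold change was -1.55 (interval -2.04 to -1.06, adjusted p = 7.36e-05, limma). It was -0.42 with 1 TPM added and -2.24 with 0.01. ABCG1 and ABCA1 passed the filter only through VEH and MET samples, so that their inclusion favoured a difference. Their values carry 2 decimals and no read numbers, and no counting error could be given.

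MYLIP, also called IDOL, encodes a ubiquitin ligase that marks lipoprotein receptors for degradation (ENSG00000007944.15, chromosome 6, 16129086 to 16148248, plus strand). It had 0.99, 1.11, 0.90 and 0.95 TPM in VEH, 0.40, 0.46, 0.45 and 0.61 in CJ28, and 1.13, 1.28, 1.11 and 1.20 in MET. CJ28 was below the other groups in every sample, and every MET sample was at or above the highest VEH sample. In CJ28 its mean fell by 51.4% from that of VEH, with a log2 fold change of -0.92 (interval -1.21 to -0.63, adjusted p = 7.70e-05, limma). The change was -0.43 with 1 TPM added and -1.04 with 0.01. Of its CJ28 samples, CJ28-4 alone reached the 0.5 TPM of the filter. MYLIP thus also needed VEH and MET samples to pass, which favoured a difference.

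LPCAT3 encodes an acyltransferase that places polyunsaturated chains into phospholipids (ENSG00000111684.11, chromosome 12, 6976185 to 7018477, minus strand). It was the most abundant of the 7 target genes among the 10, at 7.14, 7.66, 7.07 and 6.72 TPM in VEH, 3.58, 3.94, 3.34 and 3.89 in CJ28, and 7.14, 7.24, 6.09 and 5.92 in MET. CJ28 was separate from both other groups, which overlapped. The log2 fold change was -0.94 (interval -1.11 to -0.76, adjusted p = 6.52e-07, limma) and stayed between -0.97 and -0.89 when any 1 sample was left out. EMG1 and C1S overlap LPCAT3 on the other strand, with means of 13.9 and 9.27 TPM in VEH and 15.2 and 5.97 in CJ28.

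SMPDL3A, a phosphodiesterase related to acid sphingomyelinase (ENSG00000172594.13, chromosome 6, 122789049 to 122809720, plus strand), rose. It had 2.14, 2.35, 2.16 and 1.87 TPM in VEH, 2.82, 2.99, 2.79 and 2.64 in CJ28, and 2.44, 2.31, 2.53 and 2.40 in MET. All CJ28 samples were above all others, and MET was between the groups with 1 of its samples inside the VEH range. The rise was 31.9% of the VEH mean (log2 fold change 0.39, interval 0.22 to 0.55, adjusted p = 9.00e-04, limma).

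APOE, the apolipoprotein that accepts exported lipid (ENSG00000130203.10, chromosome 19, 44905791 to 44909393, plus strand), had means of 0.740 ± 0.130 TPM for VEH, 0.713 ± 0.0991 for CJ28 and 0.688 ± 0.267 for MET. Its lowest sample was MET-2 at 0.31 TPM. The CJ28 log2 fold change was -0.04 with an interval of -0.60 to 0.51 (adjusted p = 0.897, limma), and the sign turned to 0.09 after median-of-ratios scaling. ABCG4, a transporter of neural tissue (ENSG00000172350.10, chromosome 11, 119149052 to 119162653, plus strand), was between 0.00 and 0.20 TPM in all samples. With no filter its log2 fold change in CJ28 was 0.31 (adjusted p = 0.472, limma).

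Of the 9 tested genes, 7 passed an adjusted p of 0.05 in CJ28 against VEH, 2 higher and 5 lower. The comparison was broad, since 57.0% of all tested genes passed the same limit, and the number of LXR genes that passed is to be read against that share. Of the 5 lower genes, ABCA1 and ABCG1 passed the filter on low values only through VEH and MET samples, and MYLIP needed them too. Their inclusion favoured a difference, and the call of RXRA did not hold under either rescaling. The median log2 fold change of the 9 tested LXR genes, called or not, was -0.29, beside -0.13 over all 16815 genes. After median-of-ratios scaling it was -0.14, beside 0.01 over all genes. The samples of the same 7 genes did not overlap between CJ28 and VEH, as was the case for 50.3% of all tested genes. In each, the exact permutation test gave the smallest two-sided p that 4 against 4 samples allow, 0.0286, which became 0.0612 after adjustment over the 30 tests on 10 genes and 3 comparisons, and so none passed 0.05 there. In these bulk samples, fewer cells of a type and less RNA per cell cannot be told apart.

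**Figure D2:**
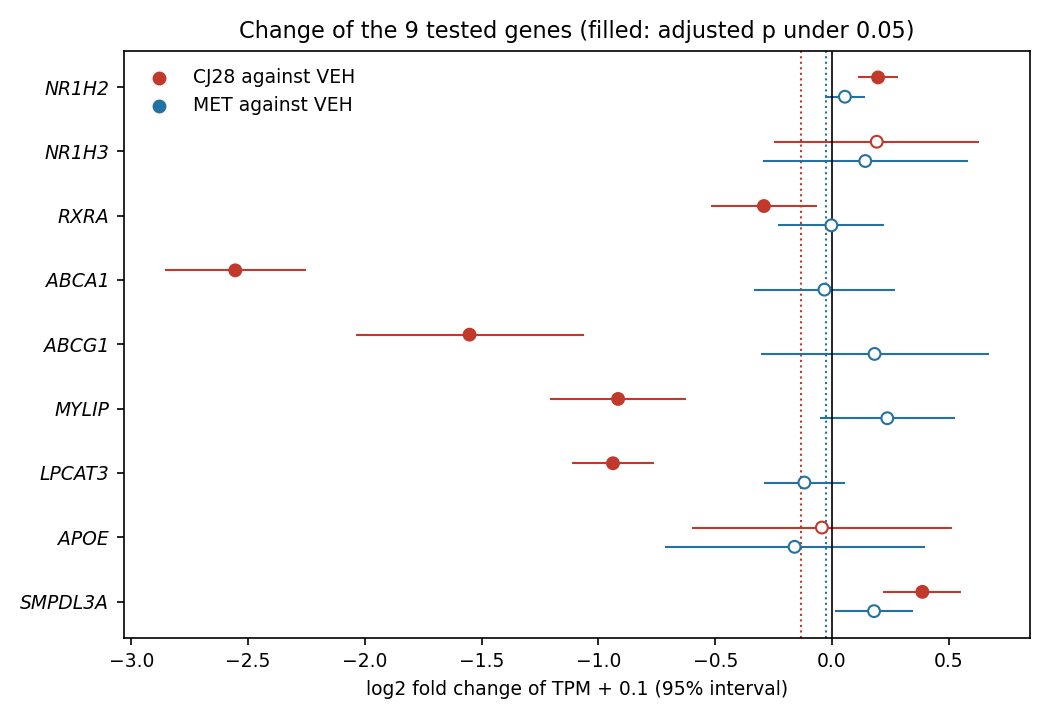
log2 fold change of TPM + 0.1 on the horizontal axis for the 9 tested genes, in CJ28 against VEH and in MET against VEH, with 95% intervals as lines, filled points for an adjusted p under 0.05, and dotted lines at the medians of all genes, -0.13 for CJ28 and -0.03 for MET. ABCA1 at -2.55 and ABCG1 at -1.55 stand farthest from 0 in CJ28, and no MET point is filled.

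The share of TPM held by nuclear protein-coding genes was 21.3% in each CJ28 sample except CJ28-1, which had 21.4%, against 24.1% to 24.8% in VEH and MET. The part of this shift in the single changes was examined by rescaling. Of all genes called in CJ28 against VEH, 65.1% were lower in TPM as deposited and 47.4% after median-of-ratios scaling. The median of all 16815 tested genes moved from -0.13 to 0.01. With TPM recomputed over nuclear protein-coding genes, 40.2% of the called genes were lower and the median was 0.09. That setting tested 12506 genes, the nuclear protein-coding ones alone, so its values combine a change of scale and of gene set. The falls of ABCA1, ABCG1, MYLIP and LPCAT3 passed under each scaling, with log2 fold changes of -2.44, -1.46, -0.78 and -0.79 after median-of-ratios scaling. The rises of NR1H2 and SMPDL3A were 0.35 and 0.53 on that scale. RXRA no longer passed under either rescaling, which left 2 genes higher and 4 lower.

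**Figure D3:**
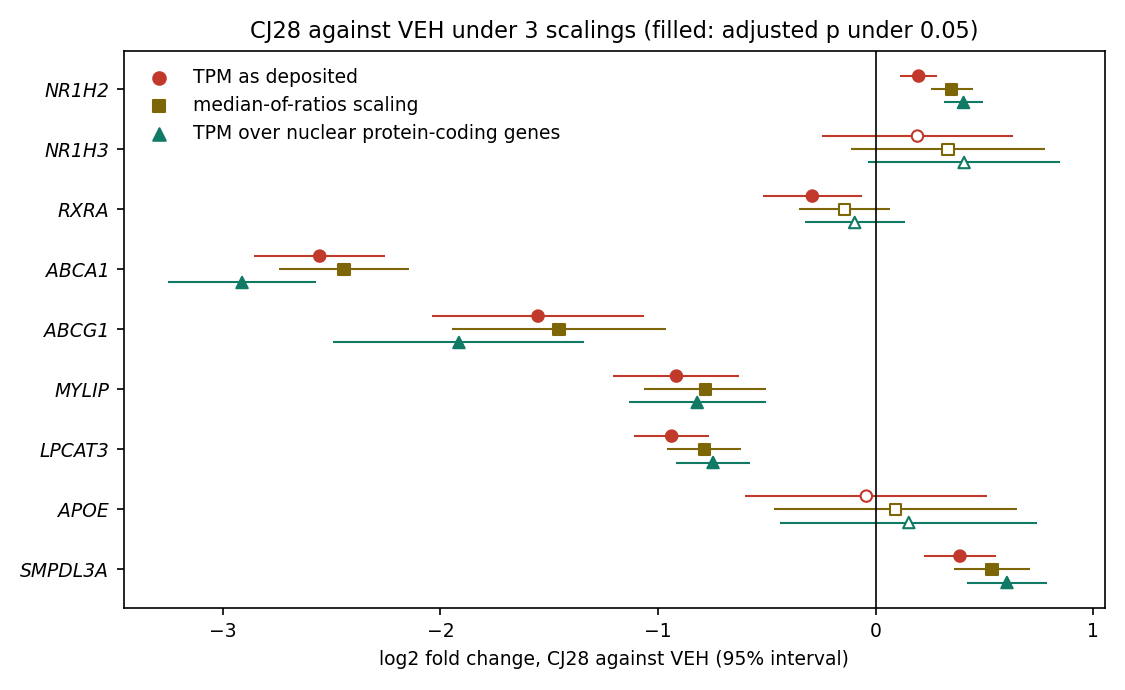
log2 fold change in CJ28 against VEH with 95% intervals on the horizontal axis, for the 9 tested genes under TPM as deposited, median-of-ratios scaling, and TPM over nuclear protein-coding genes, with filled points for an adjusted p under 0.05. The points of ABCA1, ABCG1, MYLIP, LPCAT3, NR1H2 and SMPDL3A are filled under all 3 scalings, RXRA is filled in deposited TPM alone, and APOE crosses 0.

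In MET the 9 tested LXR genes differed from VEH by at most 0.24 on the log2 scale, and ABCG4 by -0.33 in the fit with no filter (adjusted p = 0.905, limma). None of the 9 tested genes passed, with 0.933 as the lowest adjusted p (limma), in a comparison where 1 of the 16815 genes, or 0.00595%, was called and 874 had an unadjusted p under 0.05. The MET log2 fold change was -0.03 for ABCA1 (interval -0.33 to 0.27), 0.18 for ABCG1 (-0.31 to 0.67) and -0.12 for LPCAT3 (-0.29 to 0.06). For the receptors and their partner it was 0.06 for NR1H2 (-0.03 to 0.14), 0.14 for NR1H3 (-0.30 to 0.58) and -0.00 for RXRA (-0.23 to 0.22). These bounds leave room for small changes.

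MYLIP and SMPDL3A came nearest to a difference in MET. MYLIP had a log2 fold change of 0.24 (interval -0.05 to 0.53), and SMPDL3A had 0.18 (0.01 to 0.35), the single LXR gene with an unadjusted p under 0.05 in limma. No LXR gene had VEH and MET samples that were fully separate, as 2.81% of all tested genes had. After median-of-ratios scaling the samples of MYLIP and SMPDL3A were separate between the groups (exact permutation p = 0.0286 each, 0.0612 adjusted over the 30 tests), as were 2.88% of all tested genes on that scale. Over nuclear protein-coding genes those of MYLIP alone were separate (0.0659 adjusted over the 30 exact permutation tests), as were 3.01% of the genes tested there.

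CJ28 and MET were given at the same dose and time, which allows a direct comparison. In it, 7 of the 9 tested genes passed, 2 higher in CJ28 and 5 lower, beside 55.5% of all tested genes, and the samples of these 7 did not overlap, as for 50.2% of all tested genes. Mean ABCA1 was 9.81-fold higher in MET than in CJ28 (log2 difference -2.52, interval -2.82 to -2.22, adjusted p = 1.11e-08, limma) and mean ABCG1 5.76-fold higher (-1.73, -2.22 to -1.25, adjusted p = 2.94e-05, limma). MYLIP differed by -1.15 (-1.44 to -0.86), LPCAT3 by -0.82 (-0.99 to -0.65) and RXRA by -0.29 (-0.52 to -0.06), where CJ28 was lower. NR1H2 was higher by 0.14 (0.06 to 0.23) in CJ28 and SMPDL3A by 0.21 (0.04 to 0.37). This comparison uses the same CJ28 samples as that with VEH and is not a second observation of them. The filter limit of ABCA1, ABCG1 and MYLIP holds here as well.

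Of the 7, SMPDL3A had the highest adjusted p between the compounds, 0.0362 (limma), which rose above 0.05 when any of CJ28-1, CJ28-2, CJ28-3, MET-1, MET-2 or MET-4 was left out, to at most 0.0997, and was 0.0664 with no filter. RXRA lost its call against MET without CJ28-3, at -0.17 (adjusted p = 0.0684, limma), and without MET-1 or MET-4. It also lost it after median-of-ratios scaling, over nuclear protein-coding genes and with no filter (adjusted p = 0.152, 0.391 and 0.0680, limma). For NR1H3 the compounds differed by 0.05 with an interval of -0.39 to 0.49, and for APOE by 0.12 with an interval of -0.44 to 0.67, so neither a difference nor likeness of that size was shown.

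Further genes of the pathway were taken as 4 lists. Of 18 other LXR target genes, 12 were tested, and in CJ28 against VEH 3 were higher, 5 were lower and 4 did not pass, with a median log2 fold change of -0.33 beside -0.13 over all genes. The 8 of 12 that passed stand beside 57.0% of all tested genes. This list was chosen with earlier results of these data known, those of SREBF1 and SCD among them. Its counts and median are therefore not independent of these data. SREBF1, which encodes an activator of fatty acid synthesis, fell from 19.7 ± 1.56 to 0.955 ± 0.199 TPM, by 4.25 on the log2 scale (adjusted p = 2.94e-11, limma). SCD, the desaturase that makes oleate, fell from 90.9 ± 4.06 to 13.7 ± 0.188 TPM, and FASN, which makes palmitate, from 9.39 ± 1.97 to 3.35 ± 0.654. The part of LXRs in these falls was not tested. The other lower genes were MLXIPL and NPC2, at -0.82 and -0.39, and MLXIPL passed the filter only through VEH and MET samples, where it is higher. PLTP, which moves phospholipid between lipoproteins, rose from 1.25 ± 0.0512 to 2.49 ± 0.178 TPM (log2 fold change 0.94, adjusted p = 1.00e-06, limma). MERTK, a receptor that binds apoptotic cells, and NPC1, which releases cholesterol from lysosomes, rose by 0.63 and 0.54. MLXIPL, NPC2, MERTK and NPC1 are named after their values were seen, to complete the counts. The members of this list thus moved in both directions, as the 10 genes did.

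Of 14 receptor partners and coregulators, 13 were tested, and 4 were higher, 3 lower and 6 not called, with a median of -0.04. The 7 of 13 that passed are close to the 57.0% of all tested genes. NCOA2, a coactivator, rose by 0.46 (adjusted p = 5.83e-05, limma). The other higher genes were TBL1X, NCOA3 and GPS2, at 0.36, 0.28 and 0.26. They are named after their values were seen, to complete the counts. HDAC3, the deacetylase of the corepressor complex, fell by 0.37 (adjusted p = 1.13e-05, limma). The coactivators EP300 and CREBBP fell by 0.53 and 0.38, and CREBBP did not pass after median-of-ratios scaling. RXRB, which can take the place of RXRA as partner and was the more abundant of them, was at 6.93 ± 0.377 TPM in VEH and 7.30 ± 0.404 in CJ28 (log2 fold change 0.07, adjusted p = 0.280, limma). Median-of-ratios scaling made this 0.22 (adjusted p = 2.42e-03, limma), and the split of the list became 6 higher and 2 lower, where 4925 of all tested genes were higher and 4430 lower.

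Of 7 enzymes that make, use or remove sterol ligands, 4 were tested, and all 4 were lower in CJ28, with a median of -0.56. Of all tested genes, 37.1% were called lower. CYP11A1, which cleaves the cholesterol side chain, fell from 92.6 ± 1.90 to 36.0 ± 0.666 TPM, by 1.36 on the log2 scale (adjusted p = 2.12e-12, limma), and CYP27A1 and CYP39A1, which hydroxylate sterols, by 0.48 and 0.46. The fall of CYP39A1 did not pass after median-of-ratios scaling. CH25H, which makes a potent oxysterol, was at or below 0.02 TPM in every sample and was not tested.

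Of the lipoprotein receptors that MYLIP marks for degradation, 2 were examined, and both were lower in CJ28, as were 37.1% of all tested genes. VLDLR fell from 4.00 ± 0.385 to 1.57 ± 0.205 TPM, by 1.30 on the log2 scale (adjusted p = 4.14e-07, limma), and LRP8 fell by 0.43. With TPM over nuclear protein-coding genes LRP8 did not pass, nor did EP300 and CYP27A1 of the lists above (adjusted p = 0.071, 0.056 and 0.062, limma). In MET, 0 genes of the 4 lists passed the limma test, with 4 other LXR targets and none of the remaining lists at an unadjusted p under 0.05. The medians in MET were -0.09, -0.04, -0.03 and -0.15 for the 4 lists in the order above.

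**Figure D4:**
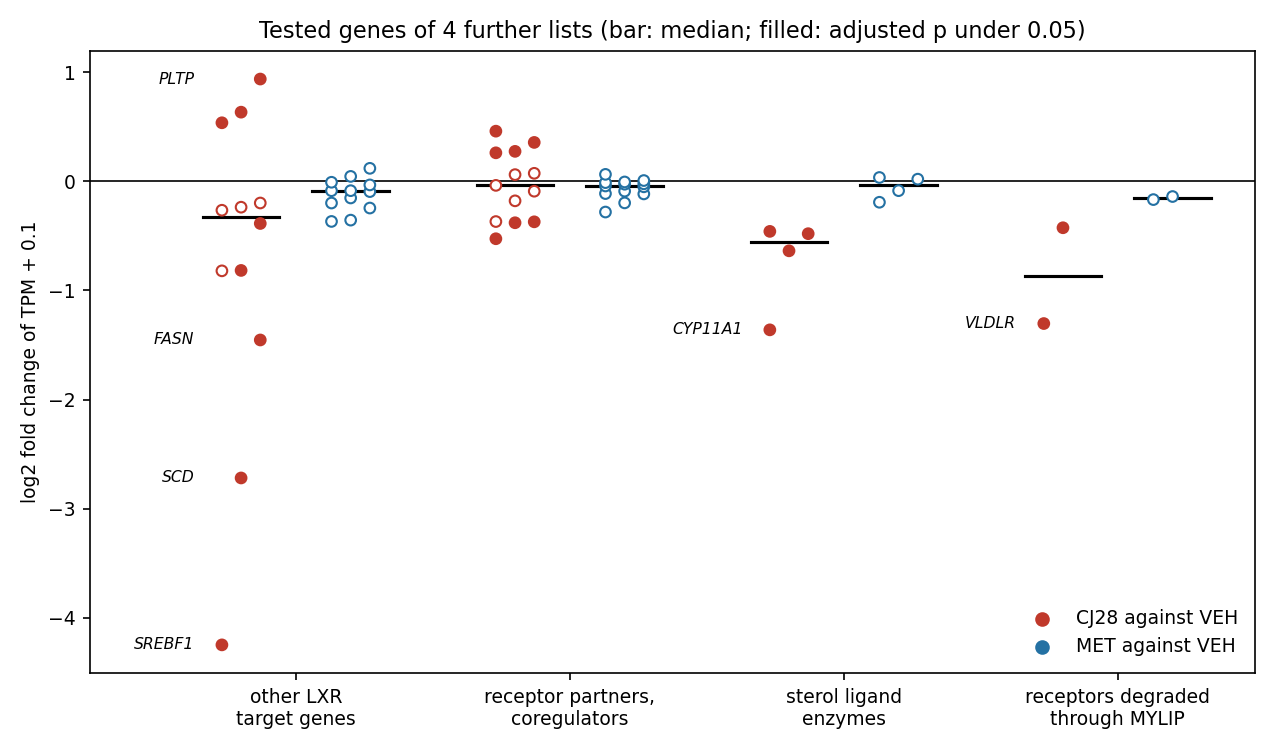
log2 fold change of TPM + 0.1 on the vertical axis for the tested genes of 4 further lists, with CJ28 against VEH and MET against VEH side by side, a bar at each median and filled points for an adjusted p under 0.05. In CJ28 the 4 ligand enzymes and the 2 MYLIP targets are all below 0, the other LXR targets spread from SREBF1 at -4.25 to PLTP at 0.94, and no MET point is filled.

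Genes with a pattern like that of 3 of the LXR genes were sought among the 13445 genes whose mean TPM reached 1, by Pearson's r of log2(TPM + 0.1) over the 12 samples. The nearest to ABCA1 were CHN1, KCTD2 and RACGAP1, each at r of 0.998 or above, but 2877 genes were above 0.9, since every such r holds the split between CJ28 and the other samples. For NR1H3 no gene was above 0.9, and the nearest was FAM117A at 0.850. SMPDL3A had 10 such genes, led by GLRX2 at 0.928. The samples share treatment and scaling, and the values are a description.

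The labelled cell type was checked against markers. All 7 adrenocortical markers (NR5A1, STAR, CYP11A1, CYP17A1, CYP21A2, HSD3B2 and MC2R) were detected in every sample, and all 7 were lower in CJ28 than in VEH, by log2 fold changes from -2.35 to -0.69, beside 37.1% of all tested genes. HSD3B2 passed the filter only through VEH and MET samples. MC2R needed them too, since CJ28-2 alone of its CJ28 samples reached 0.5 TPM. The blood cell marker PTPRC and the endothelial marker PECAM1 did not exceed 0.06 TPM. CD14 ranged from 0.12 to 0.36 TPM over all samples. The fibroblast marker COL1A1 ranged from 0.28 to 0.85 TPM with VEH, from 0.05 to 0.40 with CJ28 and from 0.35 to 0.48 with MET. The part of these marker differences in the results was not tested.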

How the data were processed

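Gene-level RNA-seq values were analysed in 12 samples, grouped by their titles. The authors deposited TPM per gene, made from stranded, ribosomal RNA-depleted libraries with cutadapt (version 2.8), STAR (version 2.7.10b) and RSEM (version 1.3.3) on GRCh38, per the submitters' processing notes. TPM does not keep the reads behind each value, and no counting interval was given. RSEM divides reads between similar genes. The authors' comparisons used DESeq2, which was not run here because no counts were analysed.

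From the table, log2(TPM + 0.1) of the genes with at least 0.5 TPM in at least 4 samples entered 1 linear model over all 12 samples (limma 3.58.1 in R 4.3.3, with lmFit and trended eBayes). P-values were two-sided and adjusted by the Benjamini-Hochberg method over all tested genes, and a gene was called at an adjusted p under 0.05. Errors are SD over 4 samples. Single genes were compared by exact permutation tests on TPM (scipy version 1.17.1, Python version 3.11.15, numpy version 2.4.6, pandas version 2.3.3). Figures were drawn with matplotlib (version 3.10.9). The fit was also run on simulated data in which few genes changed and no shift in scaling was built in. That run does not test the fit where many genes change, as in CJ28. Named genes were the 10 LXR genes, RXRB, and per further list up to 4 called genes of largest change with a mean TPM of at least 1. For ABCA1, NR1H3 and SMPDL3A, the 3 genes of most similar pattern were also sought. The members and lists were chosen with earlier results of these data known, and SREBF1 and SCD are among those. The alternatives were pseudocounts of 1 and 0.01, no filter, a mean TPM of at least 1, 2 rescalings (median of ratios, and TPM over nuclear protein-coding genes), only the groups compared, a replicate block, and leaving out each sample. The values of 2 further genes of the lists are not reported here.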

Additional observations from a re-analysis of the deposited data

Results flagged for a closer look

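In each of the 30 groups of 4 samples (10 genes, 3 treatments), the gap of the highest or lowest sample to its nearest neighbour was divided by the range of the group and set against Dixon's 95% limit for 4 samples. Chance flags about 1 in 20 groups, and 2 were above the limit. NR1H3 in CJ28-3 was 1.06 TPM, with the nearest sample at 1.51 and a ratio of 0.849. Without it the log2 fold change of NR1H3 in CJ28 against VEH was 0.32 instead of 0.19 and did not pass (adjusted p = 0.208, limma). RXRA in VEH-3 was 2.70 TPM, with the nearest sample at 2.94 and a ratio of 0.857. Without it RXRA in CJ28 against VEH was -0.32 instead of -0.29 and still passed (adjusted p = 0.0321, limma).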

How the results depend on the processing

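The falls of ABCA1, ABCG1, MYLIP and LPCAT3 and the rises of NR1H2 and SMPDL3A in CJ28 against VEH passed under every alternative in which they were tested. Over all single LXR genes and comparisons, 191 of 204 values kept their direction and call under the alternatives other than leaving out a sample, 9 lost the call and 4 changed sign. When single samples were left out, 297 of 324 kept both, 13 lost the call and 14 changed sign. The calls lost were those of RXRA in CJ28 against VEH and MET, and of SMPDL3A in CJ28 against MET. With a mean TPM of at least 1, 4 LXR genes passed in each CJ28 comparison, because fewer were tested. The sign changes were in values that were not called. Median-of-ratios scaling and TPM over nuclear protein-coding genes turned APOE in CJ28 against VEH to 0.091 and 0.15, and RXRA in MET against VEH to 0.028 and 0.012. With single samples left out, APOE ranged from -0.13 to 0.040 in CJ28 against VEH, from -0.32 to 0.13 in MET against VEH and from -0.17 to 0.27 in CJ28 against MET. In MET against VEH, RXRA ranged from -0.046 to 0.027 and ABCA1 from -0.098 to 0.022. NR1H3 in CJ28 against MET ranged from -0.075 to 0.18. The genes called in MET against VEH numbered 1 of all tested, 0 with pseudocounts of 1 and 0.01 and with a mean TPM of at least 1, 5 with no filter, 2 with TPM over nuclear protein-coding genes, and 1 to 2 without single samples (2 without VEH-4 or MET-4). LXR genes whose VEH and MET samples were separate in the exact permutation test numbered 0, but 2 after median-of-ratios scaling (2.88% of all tested genes) and 1 over nuclear protein-coding genes (3.01%). The cause was not tested.

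With the replicate number as a block, 7, 0 and 7 LXR genes and 9546, 1 and 9361 of all genes passed in CJ28 against VEH, MET against VEH and CJ28 against MET. Samples of the same number did not deviate together (mean correlations of 0.0236, -0.0237 and -0.0478), so the numbers were not taken as pairs. The small size of the groups and the 2 decimals of TPM, which do not keep read numbers per gene, limit what low genes such as ABCG1 and ABCG4 can show.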
